A study of Mus musculus with 2 samples.

Results

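The genes described here encode 10 proteins of the nucleolus and of the small nucleolar ribonucleoprotein particles (snoRNPs): Ncl, Npm1, Nolc1, Gnl3, Fbl, Nop56, Dkc1, Nhp2, Nop10 and Gar1. They were chosen by name, and each was found by its annotated position, as every anchor (a peak of RNA polymerase II signal that serves as one end of a contact) lying within 1 kb of the gene. All 10 had contacts, out of 12817 protein-coding genes that did. The contacts came from RNA polymerase II ChIA-PET, in which crosslinked chromatin is immunoprecipitated, nearby DNA ends are ligated through a linker, and the 2 ends of each ligated molecule are sequenced as a paired-end tag (PET). The unit throughout is the PET, the number of ligated molecules that joined a pair of anchors.

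The study asked how the transcription factor Ronin (Thap11) relates to contacts among promoters of housekeeping genes. Ronin knockout (Ronin KO) cells were mouse embryonic stem cells (mESCs) carrying CreERT2, a Cre recombinase switched on by tamoxifen, and both Ronin alleles floxed, treated with tamoxifen for 4 days. Control cells had that same genotype and received ethanol for 4 days, so that loss of Ronin and exposure to tamoxifen cannot be told apart. Both came from blastocysts of such animals, were grown with serum and LIF on gelatine, and were precipitated with the 8WG16 antibody; 2 experiments per condition had been merged into 1 table by the authors, which leaves no spread between replicates, no p-value for the condition, and comparisons that are between 2 libraries.

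Ribosome production starts in the nucleolus, where RNA polymerase I transcribes ribosomal RNA and small nucleolar RNAs (snoRNAs) guide its chemical modification. Box C/D snoRNPs carry out 2′-O-methylation of ribose and box H/ACA snoRNPs convert uridine to pseudouridine, each with a fixed core of proteins around a guide RNA. Many guide RNAs lie in introns of genes for translation and nucleolar proteins, and the annotation places 3 snoRNA genes inside Ncl, 4 inside Nop56, 3 inside Gnl3 and 1 inside Dkc1.

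The Ronin KO table held 65276 PETs in 44328 pairs of anchors, and that of control 156097 PETs in 128267 pairs. Ronin KO therefore had 41.8% of the control PETs but 34.6% of the control pairs. These values serve below as the yardstick for table size, which is not sequencing depth. By the study's PETs over 5 kb, the ratio of Ronin KO to control was 0.799. Whether loss of Ronin itself lowered the table totals was not tested, and scaling by them would remove such a change. A small number of pairs with 100 or more PETs took 23.6% of all PETs in Ronin KO and 12.6% in control. Without them, Ronin KO had 36.5% of the control PETs. PETs between chromosomes made up 81.4% of the Ronin KO table and 84.2% of the control table. At the gene for Ronin itself, Thap11, there were 46 PETs in Ronin KO and 109 in control, a count of contacts that does not measure whether the floxed part was deleted.

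Sequence is shown first because Ronin binds a known DNA element, the Ronin-binding motif, and one of the 10 genes has it at its start. Promoters (250 bases before to 50 after the start) of 8 of the 10 genes were matched in the RefSeq promoter table of mouse build GRCm38.p6 and located in mm9 by exact match; Npm1 and Fbl were not among them. The exact motif, searched on both strands with its degenerate positions, occurred in 221 of 32851 promoters in that table (0.673%), and in 1 of the 8, that of Nop10, a small core protein of the H/ACA particle. The bases upstream of the Nop10 start, at chr2:112101833-112102082 on the plus strand of mm9, are printed with the motif, which reads on the opposite strand, in capitals.
Nop10: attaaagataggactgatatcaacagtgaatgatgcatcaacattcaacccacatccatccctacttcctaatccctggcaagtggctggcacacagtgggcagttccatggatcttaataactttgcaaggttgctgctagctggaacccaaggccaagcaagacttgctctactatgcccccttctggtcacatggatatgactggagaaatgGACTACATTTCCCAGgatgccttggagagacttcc

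A wider search covered the whole anchors, which reach well beyond the promoters. The anchors of Nop56, Nop10 and Nolc1 held 1 copy each in both libraries, and those of the other 7 genes held none. Of all anchors from 9754 to 64993 bp wide, the range of the 10 genes' anchors, 2.65% in Ronin KO and 2.32% in control held a copy. The copies are shown on the motif's own strand, the minus strand of mm9, with the motif in capitals and 20 bases on either side.
Nop56: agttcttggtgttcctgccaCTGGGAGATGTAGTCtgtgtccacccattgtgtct
Nop10: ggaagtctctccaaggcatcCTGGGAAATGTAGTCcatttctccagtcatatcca
Nolc1: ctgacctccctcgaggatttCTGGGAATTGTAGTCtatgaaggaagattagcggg

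The copy in the Nop56 anchor (chr2:130094359-130094373) lay outside annotated protein-coding genes, 5800 bp upstream of the Nop56 start. The copy at Nop10 (chr2:112102048-112102062) was centred 28 bp upstream of its start. The copy in the Nolc1 anchor (chr19:46130888-46130902) lay 19458 bp from the Nolc1 start. It was inside the annotated gene Pprc1, a neighbour that shares the anchor, and 134 bp upstream of one of the Pprc1 transcript starts. Among the 7 promoters without an exact copy, the closest stretch differed from the motif at 3 positions for Nhp2 and Gar1 and at 4 to 6 positions for the other 5. The E-box CACGTG, searched for comparison, was in 7.15% of the table's promoters and in 0 of the 8. A match describes the letters in the window and was not tested as a bound site.

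Each gene had a single anchor in each library, and the PETs of an anchor cannot be divided among the genes it covers. Anchors of the 10 genes were wide, 9754 to 64993 bp in Ronin KO (median 29217 bp) and 9964 to 46689 bp in control (median 28672 bp), against medians over all anchors of 4739 bp and 3278 bp in those libraries. The Ncl anchor held no other protein-coding gene, whereas the Npm1 anchor also covered Fgf18, that of Dkc1 covered Mpp1, that of Gar1 covered Rrh, and that of Nolc1 covered Pprc1. The Nop56 anchor took in Idh3b and Ebf4, and the Gnl3 anchor Glt8d1, Pbrm1 and Spcs1. The Fbl anchor covered Dyrk1b in both libraries and reached 9530053A07Rik in Ronin KO only.

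**Figure D1:**
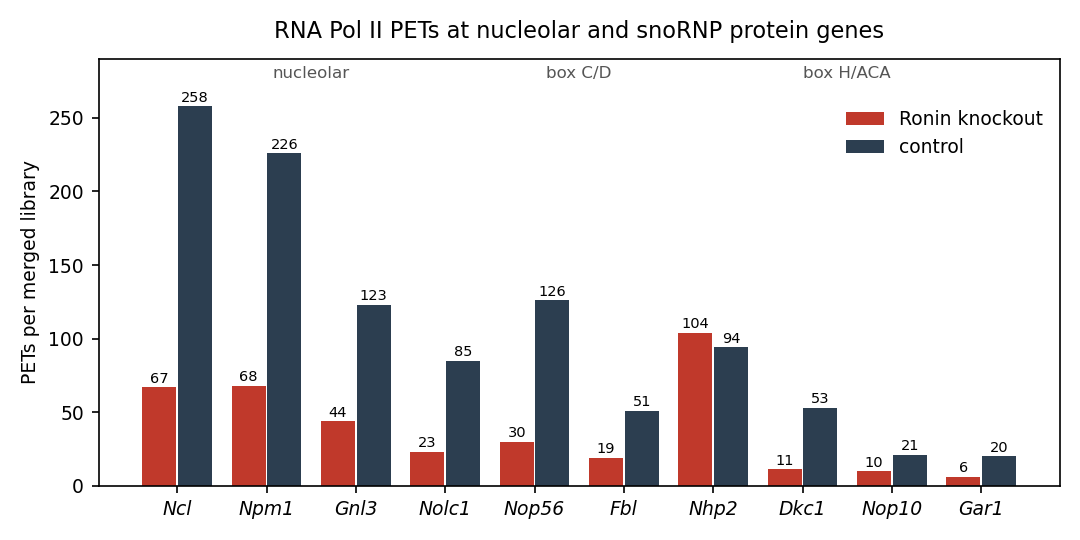
PETs of each gene (vertical axis, PETs per merged library) in Ronin KO (red, left bar) and control (dark, right bar), grouped as nucleolar, box C/D and box H/ACA proteins, with the count above each bar and 1 library per condition. Bars of 9 genes are shorter in Ronin KO, from 6 PETs at Gar1 to 68 at Npm1, and Nhp2 has 104 PETs in Ronin KO and 94 in control.

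Counting each pair once however many of the genes it touched, the 10 genes had 382 PETs in 372 pairs in Ronin KO, against 1056 PETs in 1027 pairs in control. The Ronin KO sum was 36.2% of the control sum, with an exact conditional binomial 95% interval of 32.1 to 40.7% that, like every interval given here, covers counting error only. PETs were fewer in Ronin KO at 9 of the 10 genes, where 94.8% of the 8973 protein-coding genes with at least 10 PETs over both libraries also had fewer, and 88.9% of all 12817 genes did. The median of the 10 genes was 30.0% of control and that of the 8973 genes was 36.3%. The share of the 10 genes with fewer PETs was thus near that of protein-coding genes at large.

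Dividing the ratio by that of all PETs gave a scaled ratio of 0.865 (0.767 to 0.973) for the summed genes, where 1 means the same share of the library. The median scaled ratio was 0.718 over the 10 genes and 0.868 over the 8973 genes. Scaled values were below 1 at 8 of the 10 genes, at 61.8% of the 8973 genes and at 60.7% of all 12817. Among the alternatives, the count of 8 ran from 6, with each pair counted once, to 9, when scaled by the study's PETs over 5 kb. The shares of all genes under those alternatives were not counted. The direction of the scaled sum was not stable: it was 1.048 (0.928 to 1.181) with each pair counted once, 1.031 with pairs of adjusted p-value under 0.05, and 0.990 (0.878 to 1.114) when pairs of 100 or more PETs were left out of the library totals. It was 0.453 (0.402 to 0.510) when scaled by the study's PETs over 5 kb. With pairs of at least 2 PETs it was 0.457 (0.257 to 0.780), from 19 PETs in Ronin KO and 57 in control. Unscaled, those were 33.3% of control (18.7 to 56.9%), near the main value, while the ratio of all such PETs was 0.729. Nhp2 weighed on the sum, which was 28.9% of control (25.2 to 33.1%) over the other 9 genes.

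**Figure D2:**
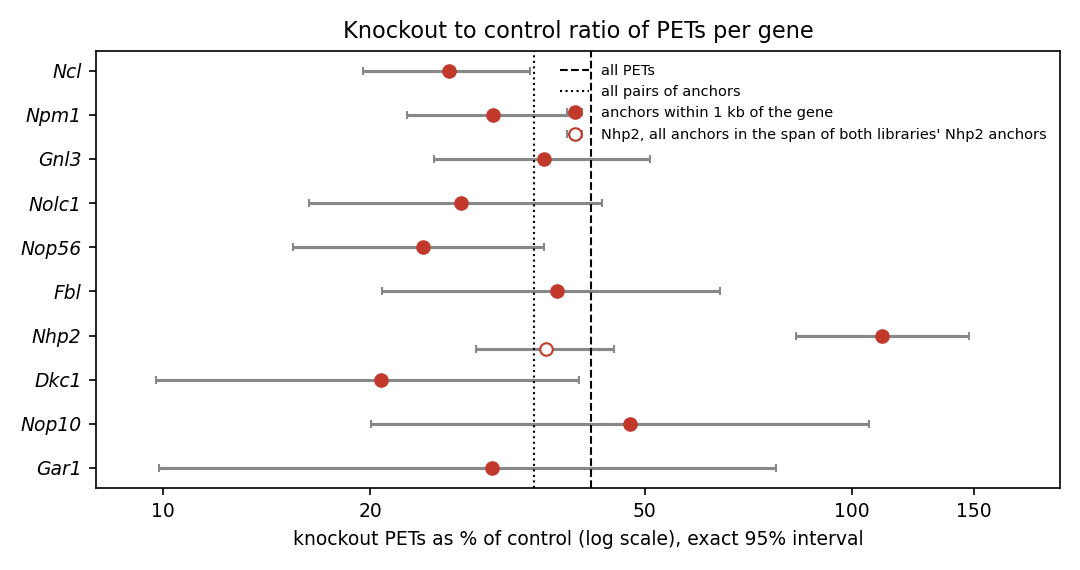
Ronin KO PETs as a percentage of control PETs for each gene (horizontal log axis), with exact 95% intervals, beside the ratio of all PETs (dashed line, 41.8%) and of all pairs (dotted line, 34.6%). Intervals of 5 genes include both lines, and the open point gives Nhp2 over the same stretch of chromosome in both libraries, 36.0% in place of 110.6%.

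Of the 10 genes, Ncl and Npm1 had the most PETs in control, and only Nhp2 had more than they did in Ronin KO. Ncl encodes nucleolin, an RNA-binding protein that takes part in ribosomal RNA transcription and processing, and lies at chr1:88241294-88256030 on the minus strand. It had 67 PETs with 65 partner anchors in Ronin KO and 258 PETs with 251 partners in control, or 26.0% of control (19.5 to 34.1%). Its interval lay below the ratios of all PETs and of all pairs, and its scaled ratio was 0.621 (0.467 to 0.815). With pairs of adjusted p-value under 0.05 alone it had 37.2% of control (27.5 to 49.9%), and the interval included both. By PETs, Ncl ranked 322nd of the protein-coding genes in Ronin KO and 126th in control.

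Npm1 (chr11:33052287-33063206, minus strand) encodes nucleophosmin, a histone and ribosomal protein chaperone of the granular part of the nucleolus. It had 68 PETs and 67 partners in Ronin KO, against 226 PETs and 219 partners in control, a ratio of 30.1% (22.6 to 39.6%) and a scaled ratio of 0.720 (0.540 to 0.948). The interval excludes the ratio of all PETs and includes that of all pairs. The scaled interval reached 1 with pairs of adjusted p-value under 0.05 (0.981, 0.727 to 1.312), with each pair counted once (0.885, 0.663 to 1.169) and between chromosomes alone (0.760, 0.564 to 1.013).

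Gnl3 (chr14:31825620-31832275, minus strand) encodes nucleostemin, a GTP-binding nucleolar protein abundant in stem cells. Its anchor held 44 PETs in Ronin KO and 123 in control (35.8% of control, 24.7 to 50.9%), with 41 and 118 partners in those libraries. Nolc1 (chr19:46150353-46160018, plus strand) encodes Nopp140, a phosphoprotein that moves with snoRNPs between Cajal bodies and the nucleolus. It had 23 PETs in Ronin KO and 85 in control (27.1%, 16.3 to 43.3%). Both intervals include the ratios of all PETs and of all pairs.

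Of the box C/D proteins, Fbl (chr7:28954765-28964288, plus strand) encodes fibrillarin, the methyltransferase of the particle, and Nop56 (chr2:130100166-130105049, plus strand) a core scaffold protein. Fbl had 19 PETs in Ronin KO and 51 in control, 37.3% of control (20.8 to 64.2%). Nop56 had 30 PETs in Ronin KO and 126 in control, 23.8% of control (15.4 to 35.7%). The Nop56 interval lay below the ratio of all PETs and included that of all pairs, while the Fbl interval included both. The scaled interval of Nop56 reached 1 with pairs of adjusted p-value under 0.05 (0.739, 0.472 to 1.126) and with each pair counted once (0.677, 0.435 to 1.021).

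Of the box H/ACA proteins, Dkc1 (chrX:72341193-72355116, plus strand) encodes dyskerin, the pseudouridine synthase, which is also part of telomerase. It had 11 PETs in Ronin KO and 53 in control, the lowest ratio of the 10 genes at 20.8% (9.78 to 40.2%). Its scaled ratio of 0.496 (0.234 to 0.961) passed the 2-fold mark by a small margin, as did 13.9% of the 8973 genes on the lower side, and it no longer passed with each pair counted once (0.612), with a scale set by the median gene (0.571) or with pairs of 100 or more PETs left out of the totals (0.568). The same mark was also missed between chromosomes alone (0.533) and without pairs that share an identical stretch of 100 bp (0.553).

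Nop10 (chr2:112102083-112103426, plus strand) and Gar1 (chr3:129527830-129534314, minus strand) encode the other small H/ACA core proteins and had the fewest contacts in control. Nop10 had 10 PETs in Ronin KO and 21 in control (47.6%, 20.02 to 105.6%), and Gar1 6 PETs in Ronin KO and 20 in control (30.0%, 9.86 to 77.5%). The Nop10 interval reaches above equal counts, so that a difference at Nop10 was not detectable at this depth. The interval of Nop10, the gene with the Ronin-binding motif at its start, spans the ratios of the other genes except that of Nhp2, which it also spans over the stretch matched between libraries. This does not compare a gene bound by Ronin with unbound ones, since binding at the 10 genes was not examined.

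Nhp2 (chr11:51433237-51437216, plus strand), the fourth H/ACA core protein, was the exception. It had 104 PETs in 102 pairs in Ronin KO and 94 PETs in 92 pairs in control, 110.6% of control (82.9 to 147.8%). Its scaled ratio of 2.646 (1.982 to 3.535) passed the 2-fold mark on the higher side, as did 6.82% of the 8973 genes, and more PETs without scaling were found at 4.02% of them. It did not pass the mark when scaled by the study's PETs over 5 kb (1.385). Nor did it with pairs of at least 2 PETs (1.372, 0.256 to 7.37), which left 4 PETs in each library. Within chromosomes alone it was 1.693 (0.655 to 4.28), from 10 PETs in Ronin KO and 12 in control. These last intervals include both 1 and the 2-fold mark, so the counts are too small to tell.

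The Nhp2 anchors did not cover the same stretch in both libraries. In Ronin KO 1 anchor of 64993 bp ran from 42620 bp upstream of the Nhp2 start to 22372 bp downstream and held 104 PETs. In control the same stretch was divided between an anchor of 30898 bp at Nhp2 with 94 PETs and an upstream anchor of 35821 bp with 196 PETs, whose genes are Hnrnpab, Agxt2l2 and Col23a1. Over the whole stretch there were 104 PETs in Ronin KO and 289 in control, each PET counted once, or 36.0% of control (28.5 to 45.2%) and a scaled ratio of 0.861 (0.681 to 1.080). On that matched stretch, a comparison added after seeing the data, the direction at Nhp2 turned and all 10 genes had fewer PETs in Ronin KO, and the sum over the 10 genes was 382 PETs in Ronin KO against 1253 in control (30.5%, 27.1 to 34.2%).

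**Figure D3:**
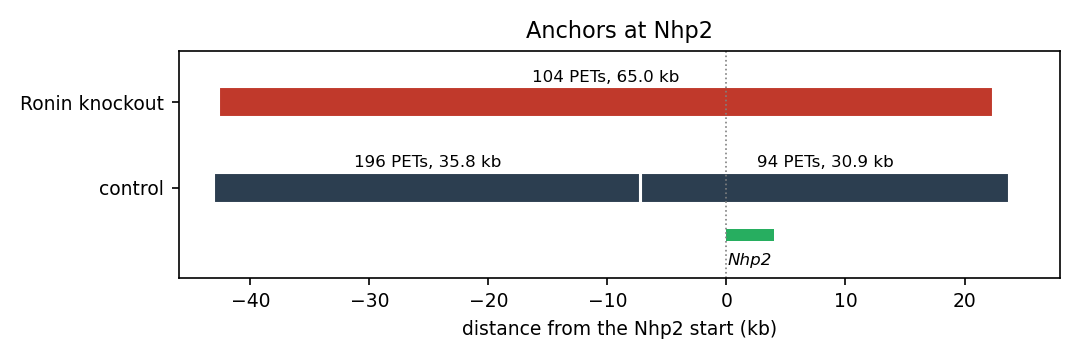
Anchors over the stretch around Nhp2 in Ronin KO (upper bar) and control (lower bars), by distance from the Nhp2 start in kb, with the gene in green. One anchor of 104 PETs in Ronin KO covers what 2 anchors of 196 and 94 PETs cover in control.

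Because wide anchors collect more PETs, levels were compared between genes per kb of anchor. Npm1 had 2.97 PETs per kb in Ronin KO and 10.3 in control, and Ncl 2.21 in Ronin KO and 8.58 in control. Nop56 followed in control with 4.62 PETs per kb, against 1.07 in Ronin KO, and Gar1 was lowest with 0.381 in Ronin KO and 1.28 in control. The median of the 10 anchors was 1.05 PETs per kb in Ronin KO and 2.42 in control, and that of all anchors from 9754 to 64993 bp in Ronin KO and from 9964 to 46689 bp in control was 0.490 and 1.25, without matching the spread of widths within that range. In control all 10 lay above that median, Fbl and Gar1 by a small margin (1.44 and 1.28 PETs per kb), and in Ronin KO Dkc1 (0.462) and Gar1 lay below it. Against anchors in bins of width the order differed. For 32000 to 65000 bp the median was 66 PETs in control, above Fbl (51), and 24 in Ronin KO, above Fbl (19) and Nolc1 (23). In Ronin KO Gar1 (6 PETs) lay above the median of its bin (5), and Dkc1 (11) at that of its bin (11).

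**Figure D4:**
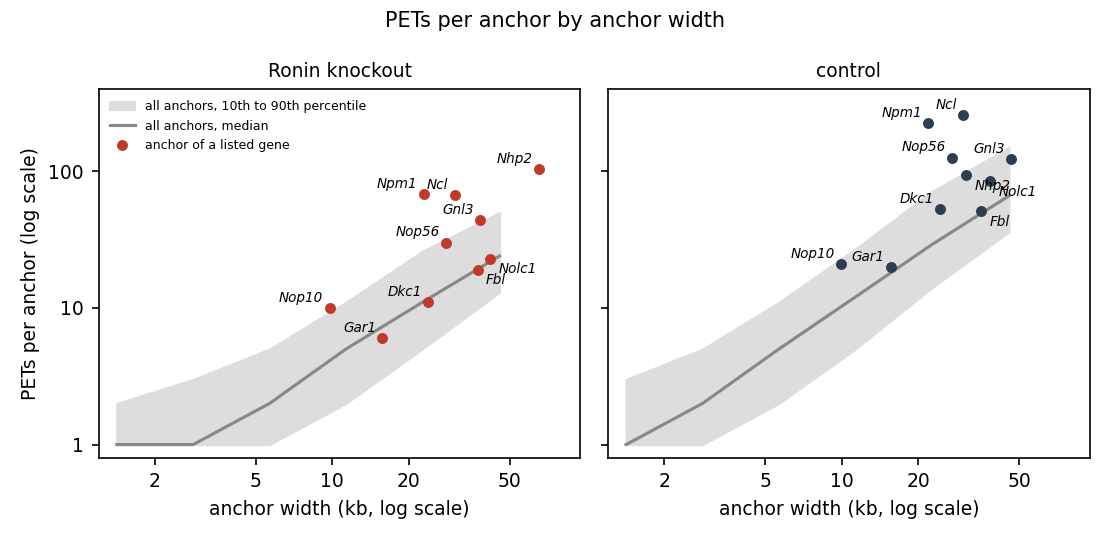
PETs per anchor (vertical log axis) by anchor width in kb (horizontal log axis) in Ronin KO (left) and control (right); points are the anchors of the 10 genes, the line and the band are the median and the 10th to 90th percentile of all anchors in bins of width. Npm1, Ncl, Nop56 and Nhp2 exceed the 90th percentile of their width bin in both libraries, Npm1 with 68 PETs in Ronin KO and 226 in control, and Gar1 has 6 PETs in Ronin KO and 20 in control.

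Nearly all contacts of the 10 genes ran between chromosomes, 351 of 382 PETs in Ronin KO (91.9%, 88.7 to 94.4%) and 974 of 1056 in control (92.2%, 90.5 to 93.8%), shares that differed by less than counting error. Most pairs rested on a single PET, 363 of 372 pairs (97.6%) in Ronin KO and 999 of 1027 pairs (97.3%) in control, where the whole tables had 97.9% in Ronin KO and 98.3% in control. By the adjusted p-values in the deposited tables, 361 of the 372 pairs in Ronin KO and 793 of the 1027 in control were under 0.05. A filter at that value therefore removed mostly control pairs of these genes. The share over all pairs of each table was not counted. The paper required several independent PETs for a high-confidence interaction. It left contacts between chromosomes in its Ronin data out of later analyses because such contacts were reported to be noisier. The partners of Ncl lay on 19 chromosomes in Ronin KO and 20 in control, and those of Gar1 on 3 in Ronin KO and 14 in control.

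Within a chromosome, the 10 genes had 31 pairs in Ronin KO with a median distance of 25.7 Mb, and 82 pairs in control with a median of 33.5 Mb. Ncl had 4 of its 8 such pairs under 1 Mb in Ronin KO and 5 of 22 in control. In both libraries Ncl was joined by 1 PET each to B3gnt7 at 43.7 kb, to Armc9 at about 163 kb and to Ptma, which encodes the chromatin-associated prothymosin alpha, at 172.9 kb. These neighbours were named after their values were seen. Nop56, Dkc1, Nop10 and Gar1 had 0 PETs within their chromosome in Ronin KO, against 9, 2, 4 and 1 in control. With 3 PETs in Ronin KO and 2 in control, Fbl and Nolc1 had counts too small for a direction.

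Partners were rarely the same in both libraries. Of the partner anchors of the 10 genes, 16 of 372 in Ronin KO (4.30%, 2.48 to 6.89%) and 16 of 1028 in control (1.56%, 0.892 to 2.52%) overlapped a partner of that gene in the other library, against 3.93% of all pairs in Ronin KO and 1.36% in control. Ncl had 6 of them, Npm1 4, Nhp2 3, and Fbl, Nop56 and Gnl3 1 each. Ncl met Ube3a, a ubiquitin ligase, with 1 PET in Ronin KO and 2 in control. Gnl3 met an anchor at Cct3, a chaperonin subunit, with 2 PETs in Ronin KO and 1 in control. Npm1 met Csnk1d, Fam60a, Fat1 and an anchor at Fn1 and Atic, and Nhp2 met Frmd8 and Klf13, each with 1 PET in either library.

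No pair of these genes had more than 3 PETs. In Ronin KO the strongest were Gnl3 with Luc7l, a splicing factor gene (3 PETs), then with 2 PETs each Gnl3 with the anchor at Cct3, Ncl with Arhgap5 and with Mvd, Npm1 with Ctsa and Pltp, Nop56 with Mlxip, Nhp2 with Tomm20 and with an anchor outside protein-coding genes, and Gar1 with Myh10. Fbl, Dkc1, Nop10 and Nolc1 had only single PETs there. In control Dkc1 reached 2 PETs with H3f3b, Nop10 with Pmm1, Nop56 with Ftl1 and with a histone cluster on chromosome 13, and Nolc1 with Ung and with Cct7. Ncl and Npm1 had 7 partners each with 2 PETs in control, Klf2 and Psip1 among them. Gnl3 reached 3, and Ncl, Fbl, Nhp2 and Nolc1 2, with a narrow anchor at Gm10800 on chromosome 2. None of these pairs of 2 or more PETs had that many in both libraries.

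The Gm10800 anchor, 1376 bp wide, joined 6 of the 10 genes in control, namely Ncl, Fbl, Nop56, Nhp2, Nolc1 and Gnl3, and 0 in Ronin KO. It had 767 partners and 7485 PETs in all of the Ronin KO table and 1776 partners and 9614 PETs in the control table. An anchor at Tex14 and one at a histone cluster with Hist1h4i joined 4 of the genes each in control, against 0 and 1 in Ronin KO. These anchors were singled out after their values were seen. In all, 13 partner anchors in Ronin KO joined 2 of the genes, and in control 84 joined 2, 9 joined 3, 2 joined 4 and 1 joined 6.

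Contacts with other ribosome genes were counted over 240 annotated genes on 3 lists and the 10 genes themselves: cytosolic ribosomal proteins, ribosome biogenesis factors, and the RNA polymerase I machinery. The 10 genes had 17 such PETs in Ronin KO and 63 in control, where the pair of Npm1 and Nop10 was counted from either end. That is 26.98% of control (14.8 to 46.7%), an interval that includes the ratio of all PETs and of all pairs. With pairs of adjusted p-value under 0.05 it was 47.2% (24.9 to 86.3%), and with pairs of at least 2 PETs there were 0 such PETs in Ronin KO and 6 in control. As a share of the genes' PETs, these were 4.45% (2.61 to 7.03%) in Ronin KO and 5.96% (4.61 to 7.56%) in control. Over all PETs, 3.88% of anchor ends in Ronin KO and 4.89% in control lay at such genes, or 5.08% and 5.59% without pairs of 100 or more PETs. All of these lay within the interval of the 10 genes in the same library.

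By list, ribosomal protein genes took 7 PETs (1.83%, 0.740 to 3.74%) in Ronin KO and 37 (3.50%, 2.48 to 4.79%) in control. Biogenesis factor genes took 8 (2.09%) in Ronin KO and 19 (1.80%) in control, and genes of the RNA polymerase I machinery 2 in Ronin KO and 5 in control. The intervals of both libraries overlapped for each list. Over all PETs, 1.855% of anchor ends in Ronin KO and 2.661% in control lay at ribosomal protein genes. The shares at biogenesis factor genes were 1.612% in Ronin KO and 1.757% in control, and at RNA polymerase I genes 0.182% and 0.192%. Each of these lay within the interval of the 10 genes for that list and library. Among themselves the 10 genes had 0 PETs in Ronin KO and 1 in control, which joined Npm1 and Nop10 on different chromosomes.

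**Figure D5:**
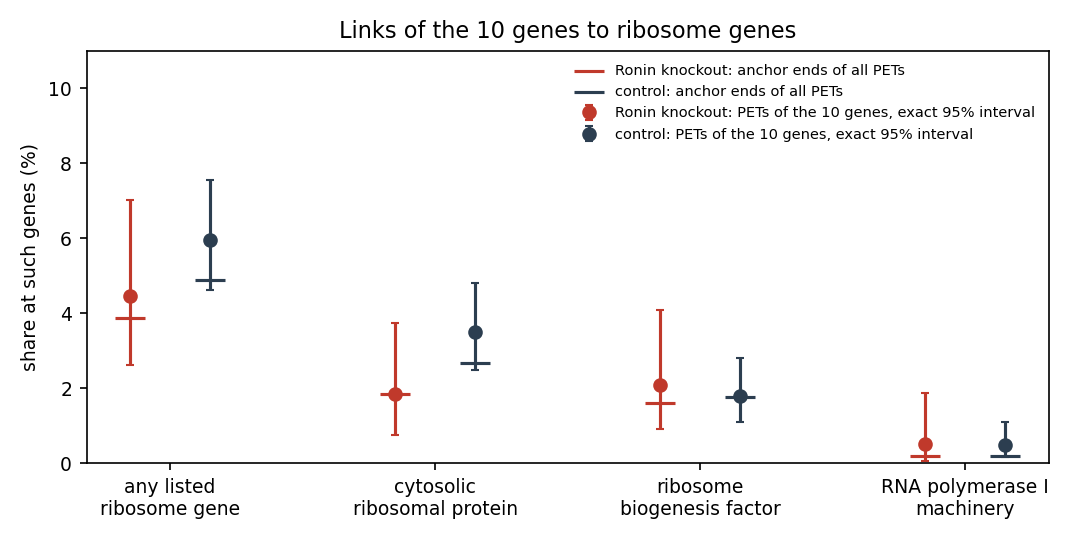
Share of the 10 genes' PETs (points, percent, with exact 95% intervals) that led to genes of each ribosome list in Ronin KO (red, left) and control (dark, right), beside the share of anchor ends of all PETs at such genes in the same library (short lines). For any listed gene the points stand at 4.45% in Ronin KO and 5.96% in control, the lines at 3.88% and 4.89%, and each line lies within its interval.

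Links found in both libraries were 2. Fbl was joined by 1 PET in either library to an anchor at Rps16, a small-subunit ribosomal protein gene on the same chromosome, at 193.3 kb in Ronin KO and 170.1 kb in control. The Ronin KO anchor (chr7:29131972-29191121) was wider than the control one (chr7:29131976-29146681) and also took in Zfp36 and Med29. Its PET therefore cannot be placed at Rps16 itself. Nop56 was joined by 1 PET in either library to an anchor at Rpl13a, a large-subunit ribosomal protein gene that hosts snoRNAs. Dkc1 and Nolc1 had 0 links in Ronin KO and 4 each in control. Those of Dkc1 led to Exosc1, Fau, Rpl11 and Rps16, and those of Nolc1 to Ddx21, Npm3, Rrp7a and Taf1d, of which Npm3, a relative of Npm1, lay 306.4 kb away.

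Npm1 had 2 link PETs in Ronin KO and 16 in control, among them 2 PETs each to Fau and Rps19 and 1 each to Pih1d1 and to Polr1c, a subunit shared by RNA polymerases I and III. Ncl had 6 in Ronin KO, Brix1 and Exosc5 among the partners, and 13 in control, with 2 PETs to Wdr74 and 1 each to Exosc2 and to Nop58, the C/D partner of Nop56. Nhp2 had 3 in Ronin KO, to Nol6, Rpf1 and Rpl34, and 8 in control, including Rpl11 and Rps12. Gnl3 had 2 in Ronin KO, with Rps6 among them, and 6 in control, among which were Dhx37, Rpl27, Rpl38 and Rps24. Nop56 had 2 in Ronin KO and 6 in control, the control partners including Rpl3, Rpl38, Rpl39 and Rpl8, and Fbl had 1 in Ronin KO and 5 in control, the others being Exosc10, Rps27, Rps28 and Xrn2. Gar1 was alone in having more in Ronin KO, 1 PET to Urb2 against 0 in control.

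The lists themselves give the setting for the 10 genes. Of the ribosomal protein genes with at least 10 PETs, 81 of 81 had fewer PETs in Ronin KO, where 94.8% of all such genes did, with a median of 27.8% of control. Of the biogenesis factor genes, 120 of 124 had fewer, with a median of 39.2%, and of the RNA polymerase I genes 12 of 13 had fewer, with a median of 50%. The 2-fold mark on the scaled ratio was passed on the lower side by 8, 10 and 1 genes of those lists (9.88%, 8.06% and 7.69%, against 13.9% of all 8973 genes), and on the higher side by 0, 4 and 2 (0%, 3.23% and 15.4%, against 6.82%). The median of the 10 genes, 30.0%, stood between those of the ribosomal protein and the biogenesis factor lists.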

How the data were processed

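RNA polymerase II ChIA-PET of Ronin KO and control mESCs was measured in 2 libraries, 1 per condition, each merged by the authors from 2 experiments. Per the labels and methods, the authors used cutadapt to remove linkers, Bowtie 1.1.1 to place each mate on mm9 and MACS 1.4.2 to call peaks, and then counted the PETs joining 2 peaks. The deposited tables give PET counts per pair, a distance score (the signed difference of peak positions in bp), and hypergeometric p-values with Benjamini-Hochberg adjustment. Broad peaks merge neighbouring genes, and random ligation adds single PETs, mainly between chromosomes.

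Genes were taken from GENCODE vM1 (mm9), with a window of 1 kb. Distances are between the midpoints of anchors. The members and lists were chosen with earlier results of these data known. All genes were counted in the same way; ratios carry exact conditional binomial and shares exact Clopper-Pearson 95% intervals. The scale was total PETs (0.418). A gene with at least 10 PETs over both libraries was called when its scaled ratio was at least 2-fold lower or higher. No test of the condition was possible. Named were all 10 genes, partners with most PETs (at least 2, some of those tied), partners found in both libraries (up to 3 a gene, extended for Ncl and Npm1 after values were seen) and ribosome links (up to 5 a gene). Counting and interval code was tested on simulated data. Python 3.11.15, pandas 2.3.3, numpy 2.4.6, scipy 1.17.1, pysam 0.24.0 and samtools 1.23.1 were used. A few partner and neighbour genes are not reported here.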

Additional observations from a re-analysis of the deposited data

How the results depend on the processing

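The alternatives changed the window, the kinds of pairs, the weight of a PET and the scale. Of the values for the summed genes, their counts and their links, 45 of 58 counted as unchanged, and of those for single genes 179 of 228 did. Unchanged meant inside the main interval, still past the 2-fold mark, or for counts of genes a similar number. The rule is loose, as Dkc1 counted as unchanged at 0.260 when scaled by the study's PETs over 5 kb. Windows at the gene body and at transcript starts gave the same PETs for each of the 10 genes. The Ronin KO sum was 45.5% of control with pairs of adjusted p-value under 0.05, 30.5% on the matched stretch and 28.9% without Nhp2. The filter on adjusted p-values removed mostly control pairs of these genes, and with it the ratio of all PETs was 0.441. The scaled sum turned to 1.031 with pairs of adjusted p-value under 0.05 and to 1.048 with each pair counted once, and was 0.457 with pairs of at least 2 PETs, 0.453 when scaled by the study's PETs over 5 kb, 0.996 when scaled by the median gene, 0.729 on the matched stretch, 0.990 with pairs of 100 or more PETs left out of the totals and 0.691 without Nhp2. The matched stretch, the totals without such pairs and the sum without Nhp2 were added after seeing the data. With pairs of at least 2 PETs the sum rested on 19 PETs in Ronin KO and 57 in control. Ribosome links were 47.2% of control with pairs of adjusted p-value under 0.05 and 0% with pairs of at least 2 PETs, 0 PETs in Ronin KO against 6 in control. Within chromosomes alone, Fbl and Nolc1 turned to 150% of control, 3 PETs in Ronin KO against 2 in control, and on the matched stretch the scaled ratio of Nhp2 turned to 0.861. Scaled by the study's PETs over 5 kb (0.799), Ncl, Npm1, Fbl, Nop56, Gar1, Nolc1 and Gnl3 also passed the 2-fold mark on the lower side. They ran from 0.298 at Nop56 to 0.466 at Fbl, and Nhp2 was at 1.385. On that scale the median of the 8973 genes, 36.3% of control, also lay past the mark. Passing it there does not set the 10 genes apart, and the share of all genes passing was not counted. The cause of these shifts was not tested, beyond what each alternative leaves out. With single-PET pairs at 97% or more of the total, depth limits every statement on a named partner. No paired analysis was possible because each condition is 1 merged library without replicate numbers.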
